A study of Mus musculus with 13 samples.

Results

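The 6 primary mouse medulloblastomas, which arose in Ptch1(+/-) animals, were compared with each other, gene by gene, to find which functions and which cell-type genes differed from tumour to tumour and which did not. The tumours were taken by their sample label, and they are 6 of the 13 arrays analysed here. The others are 3 samples of wildtype cerebellar granule neuron precursor cells from postnatal day 7 (P7 GNPC) and 4 samples of wildtype embryonic dorsal brainstem (E16.5 DBS). Every sample came from a different mouse, and no animal was treated. The age, sex and strain of the tumour-bearing mice are not given in the sources used here, and neither is the state of the second Ptch1 allele in each tumour. A further group of Ctnnb1 medulloblastomas was not analysed here. Tumours are numbered 1 to 6 in the order of their records, which is a name only.

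Medulloblastoma is a malignant tumour of the cerebellum and brainstem. The protein made from Ptch1 is a membrane receptor that keeps hedgehog signalling off until its ligand, Sonic hedgehog, binds. When Ptch1 is lost, the membrane protein Smo signals to the Gli transcription factors, and granule neuron precursors go on dividing in place of maturing into granule neurons. Such a tumour is a mixture of precursor-like tumour cells, their more mature progeny, vessels, immune cells and remains of normal cerebellum, and the arrays measured RNA from whole tissue. Fewer cells of a type and less RNA per cell cannot be told apart in such samples.

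Values are array signal intensities, on a scale where the trimmed mean of each array is 500. The spread of a gene is the standard deviation (SD) of log2(intensity + 18) over the samples of a group, so an SD of 1 means that tumours typically lay a factor of 2 from their mean. 12270 genes were bright enough to be analysed, each through its brightest probe set. All 6 tumours carried the defining genes of their label. Atoh1, the transcription factor that specifies granule neuron precursors, read 6383, 9856, 11733, 8087, 7074 and 8691 in tumours 1 to 6, against 826 to 1252 in P7 GNPC. Gli1, the direct hedgehog target, read 788, 782, 947, 843, 863 and 706, against 114 to 132. Neither gene's tumour values overlapped those of the precursors. The wildtype precursor samples were not pure, since they also held Calb1, a Purkinje cell gene, at 13962, 13399 and 16139. Array medians ran from 91.3 to 117.5 over the 13 arrays. The 3′ over 5′ signal of control transcripts, which grows as RNA degrades, was 1.33 to 1.59 on the log2 scale in the tumours, with tumour 1 highest, 1.11 to 1.19 in P7 GNPC and 1.23 to 2.43 in E16.5 DBS. The second E16.5 DBS sample held the highest of those ratios.

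Taken as groups, the tumours differed from each other more than the normal samples did. The median SD over genes was 0.27 among the tumours, 0.15 among P7 GNPC and 0.21 among E16.5 DBS. The tumour SD was above the pooled normal SD in 8202 of 12270 genes (66.8%), and the median ratio of tumour to normal SD was 1.31. The mean difference over all pairs of samples was also taken for each gene, a measure whose expected value does not depend on group size. Its median over genes was 0.31 on the log2 scale for tumours, 0.19 for P7 GNPC and 0.25 for E16.5 DBS. Medians over genes, of this measure and of the SD, still tend to be lower in smaller groups. Pairs of tumours had from 520 genes more than 2-fold apart, for tumours 5 and 6, to 1320, for tumours 2 and 3. Pairs of normal samples had 170 to 492. By the median difference over genes within a pair, tumours 1 and 4 were the closest (0.23) and tumours 2 and 5 the farthest apart (0.31). Pairs of P7 GNPC lay at 0.145 to 0.192 and pairs of E16.5 DBS at 0.147 to 0.294, so by this measure brainstem pairs overlapped the tumour pairs. The E16.5 DBS pairs inside the tumour range were sample 2 with sample 1 (0.294) and with sample 3 (0.288). Dim genes spread more, since the median tumour SD was 0.39 for genes with a mean intensity under 250 and 0.17 for those over 4000, and the part of brightness in the differences between gene lists was not tested.

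**Figure D1:**
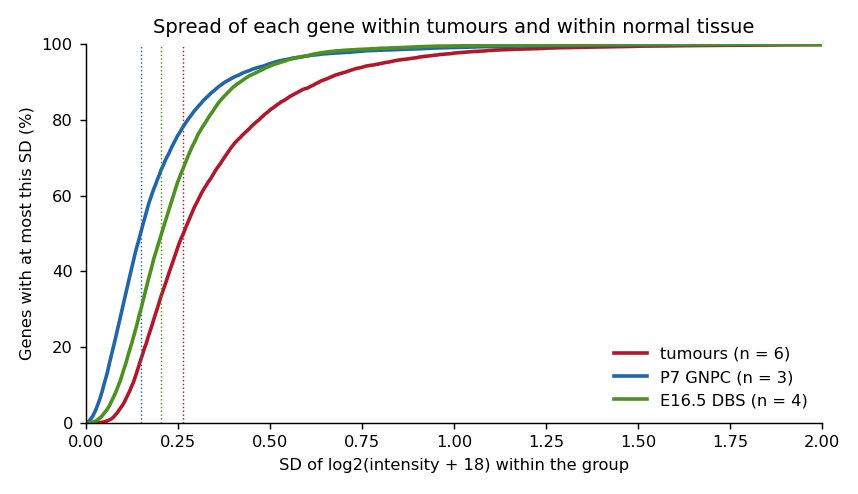
Spread of 12270 genes within each group: each curve gives the share of genes (vertical axis, %) with at most a given SD of log2(intensity + 18) (horizontal axis, log2 units). The tumour curve lies to the right of both normal curves, with medians of 0.27 for the 6 tumours, 0.15 for the 3 P7 GNPC samples and 0.21 for the 4 E16.5 DBS samples.

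The difference was also seen with 1 value per sample. The median over genes of a sample's distance from its own group mean, corrected for group size, was 0.179, 0.219, 0.202, 0.172, 0.198 and 0.183 in tumours 1 to 6. Tumours 2 and 3 lay farthest from the common profile and tumour 4 nearest. The tumour mean was 0.192 ± 0.0173 (SD, n = 6). It was 0.122 ± 0.0148 (n = 3) in P7 GNPC, whose samples did not overlap the tumours, and 0.164 ± 0.0328 (n = 4) in E16.5 DBS, whose samples did. The tumours lay 0.0704 farther out than P7 GNPC (exact two-sided permutation p = 0.0119, the smallest these group sizes allow, adjusted over 3 comparisons 0.0228). Against the 7 normal samples together (0.146 ± 0.0335) the difference was 0.0462 (exact permutation p = 0.0152, adjusted 0.0228), and against E16.5 DBS alone it was 0.0281 and did not pass (exact permutation p = 0.105). The distances were not recomputed after relabelling. Those within a group are tied to each other through its mean, so these p-values are approximate. Both calls, against P7 GNPC and against all normal samples, were lost when some samples were left out. The adjusted p was 0.0512 for both comparisons without tumour 2 or tumour 3, 0.0536 for both without any 1 of the P7 GNPC samples, and 0.0747 against all normal samples without the fourth E16.5 DBS sample. Leaving out a tumour or a P7 GNPC sample also raises the smallest p that the comparison with P7 GNPC can reach. Its loss in those fits cannot be told apart from an effect of sample number. Without the second E16.5 DBS sample the difference from E16.5 DBS was 0.0530, with an adjusted exact permutation p of 0.0119.

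Few single genes passed a test of spread. The limma test applied to the absolute deviations from the group mean, with Benjamini-Hochberg adjustment over all genes, found a larger spread in tumours for 191 of 12270 genes (1.56%) and a smaller one for 3 (0.0244%). At an unadjusted p under 0.05 the counts were 2404 (19.6%) and 303 (2.47%). Deviations within a group are tied to each other through its mean, so these p-values tend to be too small. The 191 calls became 0, 5 and 1 when P7 GNPC sample 1, 2 or 3 was left out, with 2361 genes at an unadjusted p under 0.05 in the first case, and 584 to 721 when a tumour was left out. A variance-ratio F test called 127 and 8 genes, of which 82 and 2 were shared. Among the called genes were the X-inactivation RNA Xist (SD 4.48 in tumours against 3.34 in normal samples, limma adjusted p = 0.000133), the cell cycle inhibitor Cdkn2c (3.02 against 0.20, 0.0389), the muscle and cytoskeleton gene Pdlim3 (2.54 against 0.23, 0.0424), the Notch target Hes5 (1.52 against 0.13, 0.0455), the differentiation inhibitor Id4 (1.57 against 0.13, 0.0471), the hedgehog factor Gli3 (1.27 against 0.11, 0.0415), the neurofilament gene Nefl (1.23 against 0.11, 0.0415) and the RNA exosome gene Exosc9 (0.65 against 0.04, 0.0166). None of these 8 kept an adjusted p under 0.05 in every fit with 1 sample left out. Xist also spread widely within E16.5 DBS, with the fourth sample at 13352 and the others at 3.3 to 40.0. In P7 GNPC it was level, at 10230 to 12109. The 3 genes with a smaller spread in tumours were Soga3 (0.07 against 1.17), Sspn (0.09 against 0.75) and Vps52 (0.14 against 0.81), and for each of them another, dimmer probe set varied more among the tumours. Against P7 GNPC alone 2 genes passed with a larger spread (0.0163%) and 4 with a smaller one (0.0326%), and 15.1% and 2.46% had an unadjusted p under 0.05. Against E16.5 DBS alone the counts were 2 (0.0163%) and 13 (0.106%), with 14.8% and 6.32% unadjusted.

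Lists of the basic machinery of the cell were among the least variable. The 37 gene lists compared here, 15 of cell types and 22 of functions, were set beside all genes, of which by construction 10% lie in the most variable and 10% in the least variable class. Of 65 measured genes of the spliceosome and its RNA-binding partners, 24 lay in the least variable 10% and 1 in the most variable, with a median SD of 0.15. For subunits of the proteasome, which degrades proteins, the counts were 14 and 1 of 37, with a median of 0.15. For ribosomal proteins they were 13 and 0 of 40, with a median of 0.16. For the respiratory chain of the mitochondria they were 21 and 1 of 75, with a median of 0.17. These lists hold bright genes. Over all genes the median tumour SD was 0.17 at a mean intensity over 4000 and 0.21 at 2000 to 4000. The medians of the spliceosome and proteasome lists lay below both of these values, and those of the ribosomal and respiratory chain lists near the first. No comparison with genes of matched brightness was made, so the part of brightness in this low spread was not tested. In E16.5 DBS the list medians were 0.16, 0.24, 0.16 and 0.18 in the same order. In P7 GNPC they were lower than in the tumours, at 0.11, 0.09, 0.07 and 0.11. The 1 proteasome gene in the most variable 10% was Psmb8, the interferon-inducible subunit of the immunoproteasome, at 298, 606, 90.6, 188, 210 and 282 (SD 0.83). The flattest bright gene was Senp3, a SUMO protease of the nucleolus, at 2352, 2282, 2365, 2408, 2400 and 2417 (SD 0.03). Rab14, a trafficking GTPase, ran from 10892 to 11585 (SD 0.03), and the proteasome gene Psma1 from 7632 to 8414 (SD 0.05).

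Cell cycle genes spread more than these lists. The median tumour SD was 0.22 for 34 DNA replication genes and 0.22 for 32 mitosis genes. No gene of either list reached the most variable 10%, and 5 replication genes and 0 mitosis genes lay in the least variable 10%. Over all genes the median tumour SD was 0.23 at a mean intensity of 1000 to 2000 and 0.21 at 2000 to 4000. The medians for replication genes were 0.17 in P7 GNPC and 0.21 in E16.5 DBS, and those for mitosis genes 0.26 and 0.25. Mki67, the proliferation marker, read 13303, 11645, 13106, 13671, 10249 and 12505 (SD 0.15), so no tumour stood apart. Pole, the catalytic subunit of a replicative polymerase, ran from 1134 to 1298 (SD 0.08) and the mitotic kinase gene Aurka from 1558 to 1992 (SD 0.13). The widest of the replication list was the helicase gene Mcm2, at 4161, 2618, 3573, 4144, 5017 and 6419 (SD 0.44), and the widest of the mitosis list was Kif23, a motor of cytokinesis, from 1143 to 3250 (SD 0.53). The small differences had a pattern over tumours. Tumour 2 was the lowest of the 6 in 22 of 34 replication genes and tumour 6 the highest in 18, where over all genes tumour 2 was lowest in 18.7% and tumour 6 highest in 15.7%. Tumour 3 was the highest in 20 of 32 mitosis genes, against 15.6% of all genes.

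Genes of the hedgehog pathway ranged from level to widely spread. Of 23 pathway genes and targets, 5 lay in the most variable 10%, and the median SD was 0.35 in tumours, 0.12 in P7 GNPC and 0.27 in E16.5 DBS. Gli1 varied by an SD of 0.14 and Gli2, the main activator, by 0.19, from 2686 to 3713. Mycn, a hedgehog-induced driver of precursor division, read 9862, 9816, 8084, 10951, 10922 and 10495 (SD 0.16). Smo ran from 1740 in tumour 2 to 3299 in tumour 6 (SD 0.31). Ptch1 itself read 7987, 3454, 7276, 9694, 6621 and 11575, an SD of 0.60. It was lowest in tumour 2 and brighter than that in all normal samples, which lay between 5563 and 6972. Without tumour 2 its SD was 0.32. Sfrp1, a secreted Wnt antagonist that hedgehog signalling induces, was also lowest in tumour 2, at 7669, 2282, 5057, 8299, 7769 and 5639 (SD 0.70), as it was in 3 of its 5 probe sets. Gli3, mostly a repressor, was dim and uneven, at 36.3, 156, 541, 363, 85.0 and 81.8 (SD 1.27), and Igf2, an imprinted growth factor that the meninges also make, read 5472 in tumour 3 and 332 to 981 in the other tumours (SD 1.37). The 19 measured granule neuron precursor genes had a median SD of 0.31, with 2 in the most variable 10%. Zic1, a transcription factor of this lineage, ran from 18250 to 21765 (SD 0.10), and the chemokine receptor gene Cxcr4 from 845 to 1032 (SD 0.11).

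**Figure D2:**
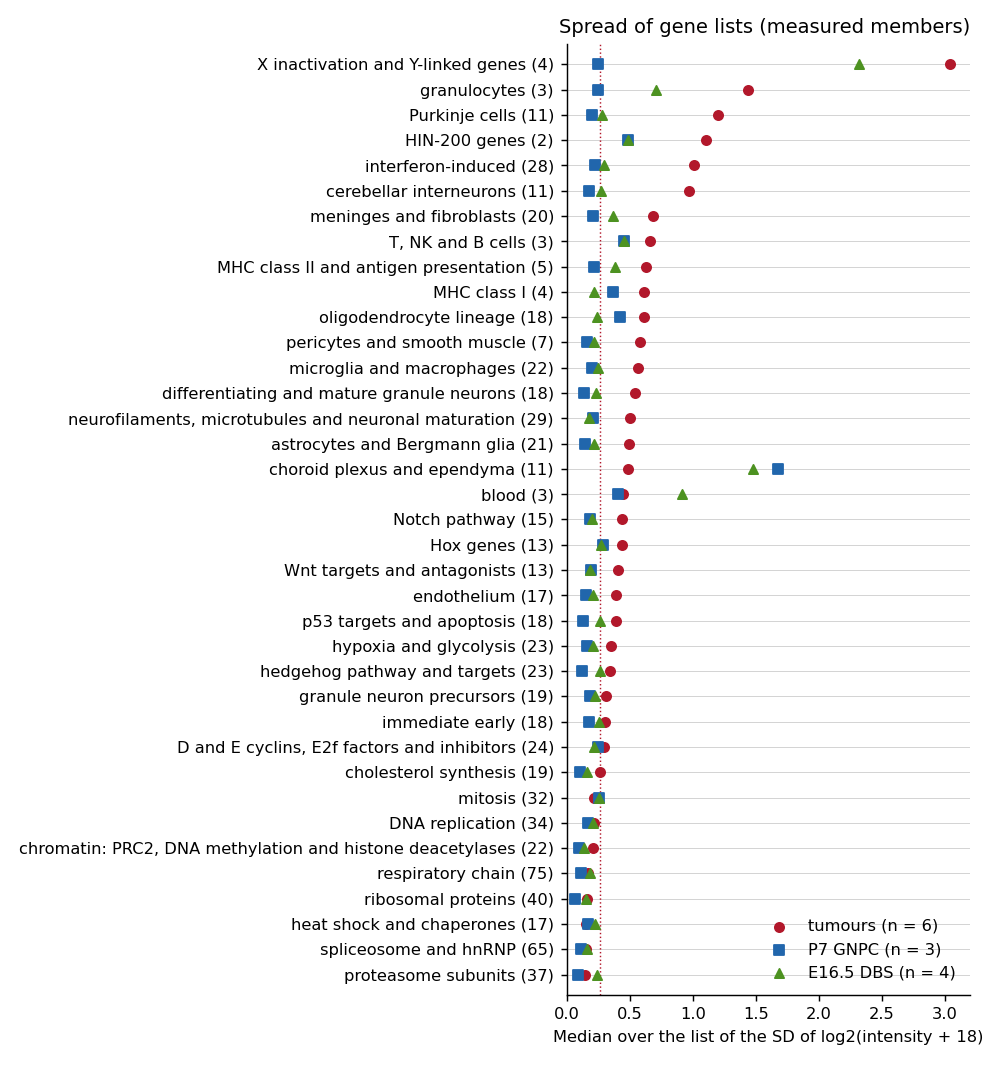
Median SD of log2(intensity + 18) of each gene list (rows) in the 6 tumours, the 3 P7 GNPC and the 4 E16.5 DBS samples (symbols, horizontal axis in log2 units, with the number of measured genes in brackets and the tumour median over all genes as a dotted line). Machinery lists such as the proteasome (0.15) and the spliceosome (0.15) sit at the low end, and lists of mature neurons, immune cells and interferon-induced genes (1.01) at the high end for the tumours.

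Genes of mature neurons were among the most variable. Of 11 Purkinje cell genes, 7 lay in the most variable 10%, with a median SD of 1.20 among the tumours, 0.20 in P7 GNPC and 0.28 in E16.5 DBS. Of 11 genes of cerebellar interneurons 9 did (0.97, 0.18 and 0.27), and of 18 genes of differentiating and mature granule neurons 6 did (0.55, 0.14 and 0.24). Gabra6, a GABA receptor subunit of mature granule neurons, read 6.8, 4621, 370, 724, 952 and 1811 (SD 2.58). Cbln3, a synaptic protein of the same neurons, read 73.6, 3576, 293, 510, 841 and 1480 (SD 1.84). Calb1, the calcium buffer of Purkinje cells, read 32.5, 3812, 319, 442, 670 and 1268 (SD 2.09), and Pcp2, specific to Purkinje cells, read 10.2, 1702, 118, 255, 379 and 765 (SD 2.07). Gad1, which makes GABA in inhibitory neurons, read 134, 3038, 426, 385, 513 and 839 (SD 1.43). In all 5 of these genes tumour 2 was the highest, tumour 6 the next and tumour 1 the lowest. These are among the widest genes of their lists, and other members had another order. Of the 18 granule neuron genes, 10 were highest in tumour 2 and 6 in tumour 1, and 7 were lowest in tumour 3 and 3 in tumour 1. The 5 genes mark different neurons, granule, Purkinje and inhibitory cells, and normal cerebellum holds them all. As the mean deviation from the 6-tumour mean, Purkinje genes stood at -1.32, 1.52, -0.39, -0.33, 0.03 and 0.49 in tumours 1 to 6. Without tumour 2 the median SD of the Purkinje list was 0.76 and that of the interneuron list 0.66. How much normal cerebellum each tumour sample held was not measured, and its part in these values was not tested.

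Glial genes followed in part. Of 18 oligodendrocyte lineage genes 9 were in the most variable 10%, with a median SD of 0.61 in tumours against 0.42 in P7 GNPC and 0.24 in E16.5 DBS. Mbp, the major myelin protein, read 4500, 9543, 412, 998, 1949 and 4374 (SD 1.63), and Mobp, another myelin protein, read 82.7, 1816, 92.9, 140, 240 and 712 (SD 1.67). Tumour 2 was again the highest for both. Unlike the neuronal genes, Mbp was lowest in tumour 3 and among the higher values in tumour 1. Tumour 1 was the highest of the 6 in 9 of the 18 oligodendrocyte lineage genes and tumour 2 in 8. Astrocyte and Bergmann glia genes had a median SD of 0.50, with 9 of 21 in the most variable 10%. The water channel gene Aqp4 read 711, 4690, 2252, 1768, 2732 and 3952 (SD 0.96), and the gap junction gene Gjb6 read 59.0, 739, 226, 91.3, 184 and 296 (SD 1.16). Tumour 1 was the lowest and tumour 2 the highest in both.

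Interferon-induced genes were high in tumour 2. Type I and type II interferons act through Stat and Irf factors, which bind a short repeated element in the promoters of antiviral genes, the interferon-stimulated response element. The upstream 250 bases of 3 such genes are shown because nearly all measured members of this list were highest in 1 tumour. The sequences are from RefSeq (GRCm38.p6) and read 5′ to 3′ along the gene's strand, and capitals mark each match to the core of that element, GAAA followed after any 2 bases by another GAAA, which on the strand shown reads as TTTC, 2 bases and TTTC. The windows are chr19:34640639-34640888 on the plus strand for Ifit1, chr19:34583279-34583528 on the plus strand for Ifit3, and chr12:26456453-26456702 on the minus strand for Rsad2.
Ifit1: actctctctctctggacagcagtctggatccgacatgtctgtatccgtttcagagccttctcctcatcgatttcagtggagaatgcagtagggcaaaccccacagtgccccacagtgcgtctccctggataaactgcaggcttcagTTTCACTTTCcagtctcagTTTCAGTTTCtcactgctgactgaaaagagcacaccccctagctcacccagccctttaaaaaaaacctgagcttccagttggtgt
Ifit3: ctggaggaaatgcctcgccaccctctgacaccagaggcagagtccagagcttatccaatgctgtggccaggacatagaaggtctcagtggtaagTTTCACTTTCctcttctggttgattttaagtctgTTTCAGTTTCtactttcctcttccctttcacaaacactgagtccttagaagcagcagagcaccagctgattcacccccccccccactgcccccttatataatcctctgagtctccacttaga
Rsad2: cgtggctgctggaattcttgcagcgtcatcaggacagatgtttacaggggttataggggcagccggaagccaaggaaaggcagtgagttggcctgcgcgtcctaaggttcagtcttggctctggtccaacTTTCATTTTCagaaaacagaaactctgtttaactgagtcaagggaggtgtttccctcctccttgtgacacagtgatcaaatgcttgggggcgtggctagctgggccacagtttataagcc
Ifit1 holds 2 matches, starting 104 and 85 bases before the gene's start, Ifit3 holds 2, at 156 and 122 bases, and Rsad2 holds 1, at 120 bases. Over windows from 250 bases before to 50 after the start, on either strand, the core occurs in 14 of the 22 measured list genes with a promoter sequence (63.6%), in 343 of 9932 analysed genes (3.45%) and in 1 of 27 mitosis genes (3.7%). A match is a description of the sequence and not a measured binding site.

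The expression values of these genes had the same shape. Ifit3, an antiviral protein, read 255, 3583, 273, 165, 210 and 354 in tumours 1 to 6 (SD 1.58). Ifit1 read 73.7, 1223, 95.1, 31.6, 68.3 and 182 (SD 1.63). Rsad2, which blocks viral replication, read 233, 2482, 452, 158, 196 and 389 (SD 1.39). Irf7, the factor that amplifies the interferon response, read 74.9, 995, 105, 75.9, 65.0 and 121 (SD 1.37). Tumour 2 stood far above the other 5 in each, and those 5 overlapped or came near the normal samples for Irf7, which ran from 44.7 to 73.6. Of 38 list genes on the array, 28 were bright enough, 24 of these lay in the most variable 10%, and 27 were highest in tumour 2, against 21.6% of all genes. The median SD was 1.01 in tumours, 0.22 in P7 GNPC and 0.30 in E16.5 DBS, and 0.45 among the tumours without tumour 2. The list's mean deviation was -0.21, 1.89, -0.49, -0.57, -0.64 and 0.01. No gene of the list passed the limma test of spread after adjustment. The exception in size was Ifit2, at 1628, 2251, 1138, 1477, 1081 and 1673 (SD 0.39), which was bright in every tumour and lay between 305 and 438 in the normal samples.

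MHC class I genes, which present antigen to cytotoxic T cells, were also highest in tumour 2. All 4 measured class I genes had this order at the top, with list mean deviations of 0.22, 0.97, -0.71, -0.39, -0.27 and 0.17 and a median SD of 0.62. B2m, the shared light chain, read 4127, 7721, 2380, 3100, 3550 and 4374 (SD 0.57), and H2-K1, a heavy chain, read 2048, 3709, 1014, 1458, 1464 and 1883 (SD 0.63). Both were lowest in tumour 3. Members of the HIN-200 family, nuclear DNA sensors that interferon induces, did not share an order. Of 8 on the array 2 were bright enough, and both were lowest in tumour 2. Mndal read 2982, 207, 1982, 2582, 4094 and 6022 (SD 1.67), and its other probe set was also highest in tumour 6 and lowest in tumour 2. Ifi202b, a member too dim for the brightness filter, was highest in tumour 2, at 629 against 4.4 to 78.8 in the other tumours. The family differs in gene content between mouse strains, the strain of each mouse is not given, and its part in this value was not tested.

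Macrophage genes followed another order of tumours. Of 22 measured microglia and macrophage genes, 18 were lowest in tumour 3 and 12 highest in tumour 6, against 21% and 15.7% of all genes. The median SD was 0.57, against 0.20 in P7 GNPC and 0.25 in E16.5 DBS. The list's mean deviation was 0.34, 0.09, -0.79, -0.22, 0.07 and 0.51, so tumour 2, the highest in interferon-induced genes, was near the middle. C1qb, a complement subunit made by microglia, read 2585, 2279, 781, 1358, 2613 and 3350 (SD 0.77). Lyz2, lysozyme of myeloid cells, read 5154, 1799, 2104, 6075, 6624 and 7926 (SD 0.90), and the adaptor Tyrobp ran from 985 in tumour 3 to 2169 in tumour 6 (SD 0.41). H2-Aa, an MHC class II chain of antigen-presenting cells, read 1196, 567, 318, 735, 894 and 771 (SD 0.63). All tumour values of these 4 genes lay above all normal values. Granulocyte genes were dim, with 3 of 9 measured. Lcn2, a neutrophil iron-trapping protein also made by inflamed tissue, read 3959, 64.2, 314, 2685, 791 and 1495 (SD 2.08), and S100a8, an abundant neutrophil protein, read 421, 50.7, 48.3, 362, 96.2 and 596 (SD 1.44). Tumours 2 and 3 were the lowest in both.

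Tumour 3 was highest in Notch pathway and vessel-wall genes. Notch receptors, cut after binding their ligands of the Jag and Dll families, act with Rbpj to switch on Hes genes and hold neural progenitors undifferentiated. Tumour 3 was the highest in 9 of 15 measured Notch pathway genes, against 15.6% of all genes, with a list mean deviation of -0.15, -0.05, 0.66, -0.29, -0.06 and -0.12. The median SD was 0.44, against 0.19 in P7 GNPC and 0.20 in E16.5 DBS, and 0.32 without tumour 3. Among ligands, Jag1 read 273, 735, 1603, 363, 567.9 and 462 (SD 0.87), Dll1 read 165, 141, 548, 90.7, 148 and 103 (SD 0.85), and Dll3 read 573, 726, 1806, 1005, 323 and 164 (SD 1.17). The receptor gene Notch1 read 432, 434, 1610, 343, 340 and 367 (SD 0.84, and 0.17 without tumour 3). In tumour 3 it lay above all normal samples, which ran from 883 to 1449, and in the other 5 below all of them. In its other, dimmer probe set tumour 3 was again the highest tumour, at 257, but lay within the normal range of 156 to 282. The other 5 tumours lay below that range. Rbpj, the shared DNA-binding partner, ran only from 2642 to 3491 (SD 0.15). Among targets, Hes1 read 470, 550, 1565, 458, 480 and 614 (SD 0.66), whereas Hes5 was highest in tumour 6, at 421, 490, 1160, 85.8, 1167 and 1959 (SD 1.52). Tumour 3 was also the highest in 10 of 17 endothelial genes and 4 of 7 pericyte and smooth muscle genes, with mean deviations of 0.46 and 0.75. Rgs5, a pericyte marker, read 1510, 1127, 4180, 2432, 1250 and 1564 (SD 0.70). Vessel walls and their support cells express Jag1, Notch1 and Hes1 too, so the part of the vessel cells in the Notch values was not tested. Of 29 genes of neurofilaments, microtubules and neuronal maturation, by contrast, 16 were lowest in tumour 3, against 21% of all genes, with a median SD of 0.50. Nefl, the light neurofilament chain, read 251, 393, 58.6, 724, 83.2 and 189 in the tumours and 4583 to 15384 in the normal samples.

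**Figure D3:**
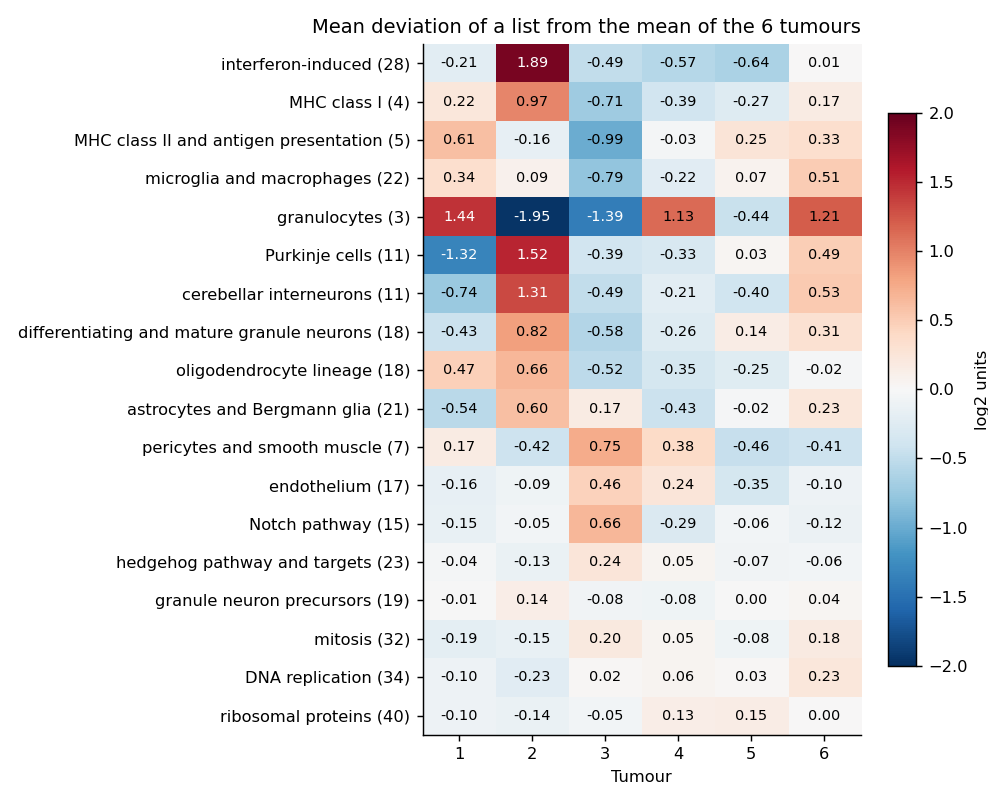
Mean deviation of each gene list (rows) from its 6-tumour mean in each tumour (columns, colour in log2 units). Tumour 2 stands out in interferon-induced (1.89) and Purkinje cell genes (1.52), and tumour 3 is high in the Notch pathway (0.66) and low in macrophage genes (-0.79).

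Some genes split the tumours into a bright and a dim set. Cdkn2c, which encodes the cyclin-dependent kinase inhibitor p18, read 2866, 3616 and 3905 in tumours 1, 2 and 3 and 75.2, 52.1 and 49.1 in tumours 4, 5 and 6 (SD 3.02). The dim tumours lay below every normal sample, which ran from 206 to 282 in E16.5 DBS and from 1237 to 1698 in P7 GNPC. The array holds 1 probe set for it, so no second measurement was available. Pdlim3 split the tumours the same way, at 5738, 4159, 7505, 145, 402 and 192 (SD 2.54), and Exosc9 in the opposite direction with a smaller gap, at 980, 920, 873, 1790, 2015 and 2479. Exosc9 in tumours 4 to 6 lay near its level in the normal samples, 1889 to 2194. Other genes split them in other ways. Foxd1, a forkhead factor of meninges and other mesenchyme, read 1213, 163, 1513, 29.4, 40.6 and 2071 (SD 2.46). Olig3, a factor of dorsal hindbrain progenitors, read 88.9, 718, 1486, 1556, 60.2 and 21.3 (SD 2.34), and Otx1, a brain patterning factor, read 1233, 1052, 7.4, 646, 882 and 188 (SD 2.16). Ttr, the thyroid hormone carrier of the choroid plexus, reached 8675 in tumour 5 and 2.9 to 630 in the other tumours (SD 2.98), but it also ran from 296 to 26073 within P7 GNPC, which gave a pooled normal SD of 2.93.

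Other variable genes set a lone tumour apart. By Dixon's gap test at the 95% level 841 of 12270 genes (6.85%) had 1 tumour apart from the other 5. Chance alone meets a test at this level in about 5% of genes that were not picked for it. The share over all genes was thus little above the chance rate, and most of these genes may have met the test by chance. Of the 780 genes (6.36%) whose highest and lowest tumours were over 4-fold apart, 110 (14.1%) had this shape. Tumour 2 alone was above in 128 genes and below in 138, and tumour 3 alone was below in 119. Krt10, a keratin of skin, read 17740 in tumour 4 and 689 to 1829 in the other tumours. Ebf2, a factor of neuronal differentiation, read 105 in tumour 4 and 1248 to 1915 in the other tumours. Hoxa2, which patterns the hindbrain, read 827 in tumour 1, 2.4 to 24.6 in the other tumours and 387 to 545 in E16.5 DBS. Isl1, a motor neuron factor, read 696 in tumour 5, 2.1 to 14.1 in the other tumours and 210 to 424 in E16.5 DBS. Fgfr4, a growth factor receptor, read 1521 in tumour 3 and 108 to 204 in the other tumours. Cavin2, a protein of membrane caveolae, read 1059 in tumour 6 and 4322 to 8534 in the other tumours, all above the 386 to 590 of the normal samples.

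**Figure D4:**
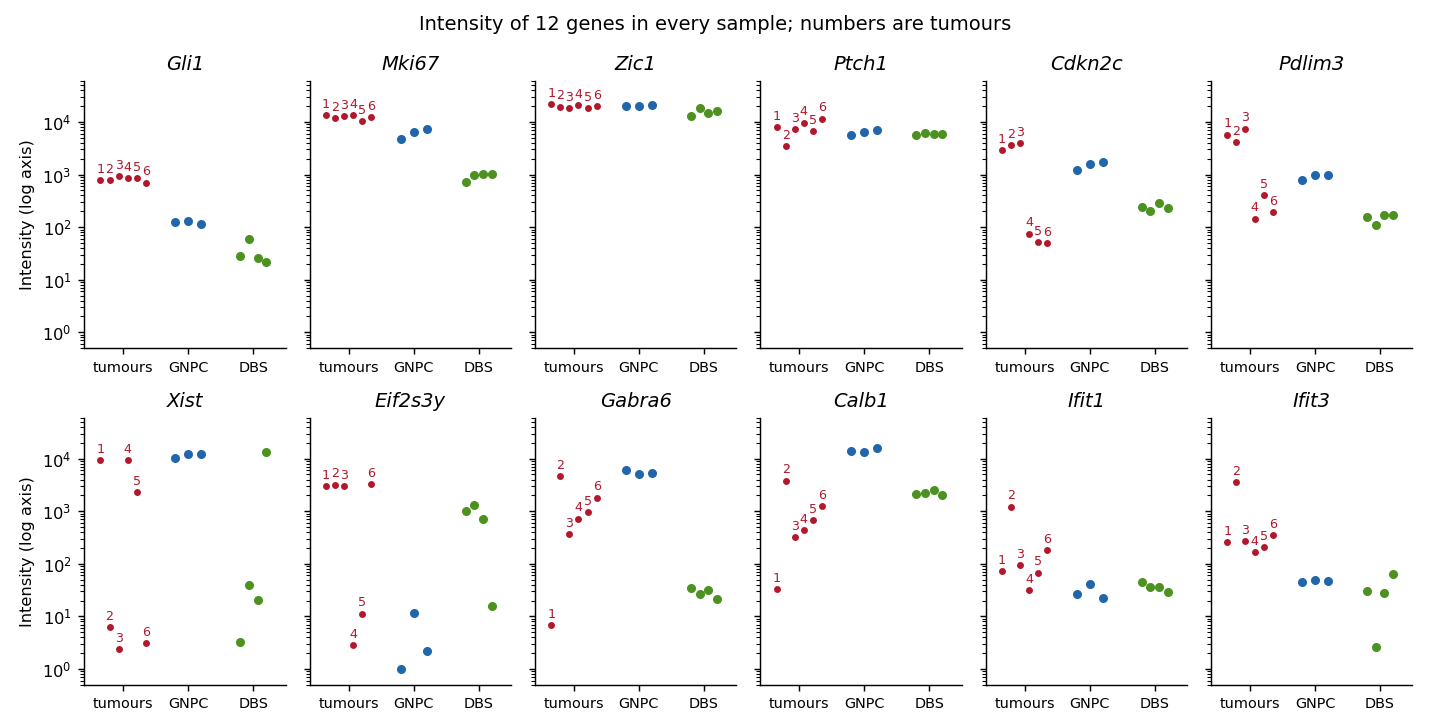
Intensity of 12 genes in each of the 13 samples (vertical axis on a log scale, 1 point per sample, tumours numbered). Cdkn2c falls into tumours 1 to 3 at 2866 to 3905 and tumours 4 to 6 at 49.1 to 75.2, Ifit3 is high in tumour 2 alone (3583), and Gli1 and Mki67 are level across the 6 tumours.

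Genes that follow the sex chromosomes spread widely, and Xist more than any other gene. Xist, the RNA that coats the inactive X chromosome of female cells, read 9406, 6.2, 2.4, 9231, 2323 and 3.1 (SD 4.48). The Y-linked translation factor gene Eif2s3y read 3004, 3217, 2974, 2.8, 11.3 and 3269 (SD 3.61). The Y-linked demethylase genes Kdm5d and Uty read 703, 577, 700, 19.3, 7.7 and 1300 (SD 2.46) and 365, 378, 499, 25, 8.4 and 615. Tumours 2, 3 and 6 had Y-linked signal without Xist, and tumours 4 and 5 had Xist without Y-linked signal. Tumour 1 had both at full level. The 3 P7 GNPC samples had Xist at 10230 to 12109 with Eif2s3y at 1.0 to 11.5, and the fourth E16.5 DBS sample, at 13352, differed from the other 3, at 3.3 to 40.0. Sex is not labelled. What the double signal in tumour 1 stands for was not tested, and the values of tumour 1 above are given with that reading in view.

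On some chromosomes the genes of long stretches were lower or higher in 1 tumour. For genes with a mean intensity over 500, the median over a chromosome of the log2 difference from the 6-tumour median was taken, after removing the median of the array. On chromosome 13, with 293 genes, it was 0.01, -0.46, 0.04, 0.02, 0.01 and 0.01 in tumours 1 to 6. Tumour 2 was the lowest in 190 of these genes (64.8%), against 19.8% on the other chromosomes. In 11 blocks along the chromosome in RefSeq order, the first and second blocks of 25 genes stood at -0.08 and 0.08 in tumour 2 and the following 9 blocks at -0.43 to -0.80. Ptch1 lies in the seventh block, which stood at -0.61. Of the 138 genes with tumour 2 alone below, 65 were on chromosome 13. On chromosome 8, with 382 genes, tumour 6 stood at 0.30 and the other tumours between -0.04 and 0.00, and tumour 6 was the highest in 241 genes (63.1%), against 15% elsewhere. All 15 blocks of that chromosome lay between 0.12 and 0.40 in tumour 6. Against the mean of the normal groups the values were -0.54 for chromosome 13 in tumour 2 and 0.33 for chromosome 8 in tumour 6.

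Chromosome 6 varied in a graded way. Its 387 genes stood at 0.05, -0.21, -0.14, 0.01, 0.10 and 0.07 against the tumour median. Tumour 2 was the lowest in 169 of them (43.7%), against 20.4% elsewhere. Against the normal groups all 6 tumours were above 0 on this chromosome, at 0.41, 0.15, 0.18, 0.32, 0.48 and 0.40, so the negative sign of tumours 2 and 3 holds only against the other tumours. On chromosome 16 tumour 2 stood at -0.17 over 241 genes and at -0.22 against the normal groups, and it was the lowest in 118 genes (49%), against 20.7% elsewhere. DNA copy number was not measured in these samples, and its part in these shifts was not tested.

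**Figure D5:**
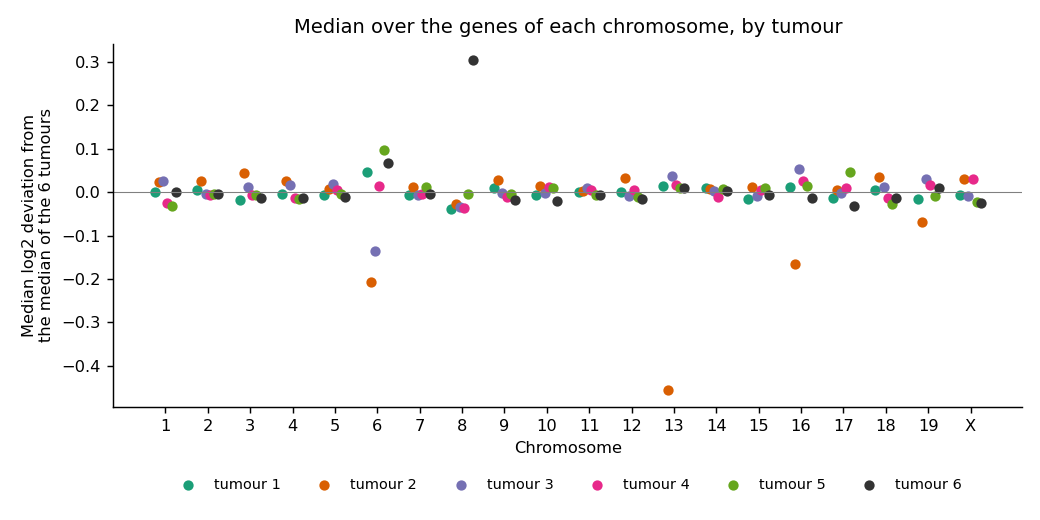
Median log2 difference of each chromosome's genes (horizontal axis) in each tumour (coloured points) from the 6-tumour median (vertical axis, log2 units), for genes with mean intensity over 500. Chromosome 13 of tumour 2 (-0.46), chromosome 8 of tumour 6 (0.30) and chromosome 6 of tumours 2 (-0.21) and 3 (-0.14) stand away from 0.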

How the data were processed

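RNA from 13 samples (6 Ptch1 tumours, 3 P7 GNPC, 4 E16.5 DBS) was labelled with the Affymetrix Two-Cycle protocol and hybridised to 1-colour arrays, per the labels. The deposited values are signal intensities on a linear scale, made by the authors with MAS5 according to the submitters' processing notes. The version and genome build are not given in the sources used here. Each array has a trimmed mean of 500. Of 45101 probe sets, 45037 are not controls. Of these, 34945 have 1 gene symbol in the platform annotation, 932 have several and 9160 have none. A gene is its probe set of highest mean, kept when it passed the median of its array on 3 or more of 13 arrays (12270 of 18193 genes, of which 12221 matched the RefSeq gene table). No normalization was added.

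Spread was the SD of log2(intensity + 18). Tests used limma 3.58.1 in R 4.3.3 on absolute deviations from the group mean, scaled for group size, with lmFit, a mean per group and eBayes with a trend, for the tumours minus the mean of both normal groups (10 residual degrees of freedom). Calls are at a Benjamini-Hochberg adjusted p under 0.05. The 1 value per sample was compared by exact two-sided permutation over all relabellings, with distances kept as taken from the labelled group means. The fits were tested on simulated data. The number of arrays limits the precision. The tumours and gene lists were chosen with earlier results of these data known. Genes named are those of largest and smallest tumour SD, overall and in each list, those called with the largest ratio of SDs, those farthest from the nearest other tumour, label checks, and list members beside them. Alternatives changed the added constant, scaling, filter, probe-set choice, measure of deviation and test, and left out each sample in turn.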

Additional observations from a re-analysis of the deposited data

Results flagged for a closer look

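In some groups the highest or lowest sample lay far from the rest by Dixon's gap test at the 95% level. Chance alone meets it in about 1 in 20 groups of values that were not picked for it. Some genes below were named for passing this test or for a large SD. That rate does not hold for them, and their passing is no further evidence. Tumour 2 lay above the other tumours for Ifit3 (3583), Irf7 (995), Rsad2 (2482) and the mean of the interferon-induced list (1.89, log2 deviation), and below them for Mndal (207), the HIN-200 list (-2.05), and the medians of chromosome 13 (-0.46) and chromosome 16 (-0.17). Tumour 3 lay above for Notch1 (1610), Dll1 (548), Hes1 (1565), Fgfr4 (1521) and the Notch pathway mean (0.66), and below for Mycn (8084). Tumour 1 lay above for Hoxa2 (827) and for the 3′ to 5′ ratio of control transcripts (1.59, log2). Tumour 4 lay above for Krt10 (17740) and below for Ebf2 (105). Tumour 5 lay above for Isl1 (696). Tumour 6 lay above for the median of chromosome 8 (0.3) and below for Cavin2 (1059).

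Among normal samples, the fourth E16.5 DBS sample lay above the other 3 for Xist (13352) and below them for Eif2s3y (15.5), Kdm5d (5.0) and Uty (5.9). The first lay below for Mki67 (706) and the second for Ttr (606).

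Genes too dim for the brightness filter also held a signal in 1 tumour, at 500 or more against none as bright in the normal samples. In tumour 2 these were Usp18 (2427), Oasl2 (1251), Ifi27l2a (1134), BC023105 (637), Ifi202b (629) and Slfn8 (524). In tumour 6 they were Uba1y (1219) and Chil3 (651). Usp18, Oasl2 and Ifi27l2a are interferon-induced genes, Uba1y is Y-linked, and Chil3 is a chitinase-like protein of myeloid cells. Of the 728 genes above the array median in at least 1 array but in fewer than 3, 8 reached 500 in a single tumour, and 1 did so in a single normal sample.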

How the results depend on the processing

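The median tumour SD ran from 0.214 with log2(value + 100) to 0.319 with no filter, its median ratio to the normal SD from 1.19 with no filter to 1.42 with equal array medians, and the tumours had the largest median SD of the 3 groups in each alternative with all samples. Counts of single genes did not keep theirs. The main counts, more and less spread in tumours, were 191 and 3 against both normal groups, 2 and 4 against P7 GNPC, and 2 and 13 against E16.5 DBS. With 1 sample left out they ran from 0 to 721 and 0 to 31, 1 to 6 and 2 to 120, and 0 to 96 and 1 to 138. Against both groups, the count of more spread was 327 with arrays scaled to the same median, 455 with no filter, 82 for genes with a mean above 500 and 366 with each probe set on its own. That of less spread was 8 with log2(value + 1), 10 with + 50, 10 with + 100, 56 with no filter, 13 with the filter in at least 1 array, 0 above 500 (170 at an unadjusted p under 0.05), 7 with the mean of probe sets, 13 with each probe set and 11 without probe sets that may bind several transcripts. Against P7 GNPC, more spread was 1 with + 50, + 100 and above 500, and less spread 7 with + 100, 11 with quantile normalization, 33 with no filter, 1 above 500, 20 with each probe set and 8 without such probe sets. Against E16.5 DBS, more spread was 4 with + 50 and + 100, 0 with equal medians (2022 unadjusted), 93 with no filter and 1 with the mean of or each probe set, and less spread 28 with + 1, 6 with equal medians, 128 with no filter, 21 with the filter in at least 1 array, 3 with the mean of probe sets and 22 with each. Deviations from the group median gave 0 calls by limma in all 6 (1231, 52, 611, 49, 708 and 389 unadjusted), and squared deviations 0 in 5 (1432, 235, 590, 377 and 808) and 3 in the last. The variance-ratio F test, added after the data were seen, gave 127 and 8, 0 and 0 (1034 and 147 unadjusted), and 1 and 2. The cause of these shifts was not tested.

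The distance of tumours beyond the normal samples was 0.0354 above 500 and 0.0544 from the group median, no longer past the threshold, and against E16.5 DBS 0.0362 with the mean of probe sets, past it. With 1 sample left out it was 0.0375 to 0.0617 (both), 0.0563 to 0.0896 (P7 GNPC) and 0.0158 to 0.0530 (E16.5 DBS). The Vps52 difference in deviation turned to 0.0377 without probe sets that may bind several transcripts, and chromosome 6 against the normal groups, a reference also added later, turned to 0.152 in tumour 2 and 0.181 in tumour 3. Of 404 list medians recomputed with all samples, 29 moved beyond a fixed ratio to their main value. Few arrays limit the tests, and dim probe sets limit the SDs. No paired analysis was possible because the labels give no replicate numbers shared between groups.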

Other observations

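Genes of the meninges and of fibroblasts were uneven, with 13 of 20 in the most variable 10% and a median SD of 0.69 in tumours, 0.21 in P7 GNPC and 0.36 in E16.5 DBS, and no tumour was the highest in more than 5 of them. Choroid plexus and ependymal genes were far more uneven in both normal groups than in the tumours, with a median SD of 0.49 in tumours, 1.68 in P7 GNPC and 1.48 in E16.5 DBS over 11 genes. Genes of T, NK and B cells (3 measured of 15, median SD 0.66) and of blood (3 of 7, median 0.45) were too few to describe.

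Among 24 genes of cyclins, E2f factors and cyclin-dependent kinase inhibitors the median SD was 0.30, and the 3 most variable were all inhibitors. Beside Cdkn2c these were Cdkn1c (p57), which read 494, 704, 2833, 275, 263 and 943 in tumours 1 to 6 (SD 1.25), and Cdkn1a (p21), a p53 target, which read 2491, 537, 2865, 838, 1622 and 2317 (SD 0.96). Their orders of tumours differed, and tumour 3 was the highest in each of the 3. The 18 p53 targets and apoptosis genes, Cdkn1a among them, had a median SD of 0.39. Among lists of signalling, stress and metabolism the median SD was 0.41 over 13 Wnt targets and antagonists, with Wif1 the widest (SD 1.27), 0.35 over 23 hypoxia and glycolysis genes, 0.31 over 18 immediate early genes, 0.27 over 19 cholesterol synthesis genes, 0.21 over 22 chromatin genes and 0.16 over 17 heat shock genes and chaperones. The 13 Hox genes had a median SD of 0.44 among the tumours, but their mean log2(intensity + 18) was only 4.61 to 5.38 there. It was 4.92 to 5.10 in P7 GNPC and 10.1 to 10.4 in E16.5 DBS. The tumour spread of this list was thus largely measured near the floor of the scale.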
